A study of Canis lupus familiaris with 21 samples.

Results

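Prefrontal cortex of dogs labelled CCD was compared with that of dogs labelled old. CCD is canine cognitive dysfunction, in which aged dogs lose memory, orientation and regular sleep. The comparison took 6 of the 21 libraries of the series: CCD cortex_163, cortex_354 and cortex_358 against old cortex_250, cortex_253 and cortex_264, chosen by their condition labels. It was described over the 34981 genes of the cortex table, of which 19010 had a mean of at least 10 normalised counts and were tested, while 15971 fell under that limit and were not. The 822 transposable element families of the same table are no genes and were left out. The dogs were companion dogs, and the labels give the tissue and the condition only; 3 young cortex libraries and 12 libraries of plasma extracellular vesicles (EVs) complete the series. RNA of the cortex was polyadenylated RNA of a whole piece of tissue, so fewer cells of a type and less RNA per cell cannot be told apart. Whether each library number stands for its own dog is not given by the labels, and p-values therefore measure the spread between these libraries, which may be technical. Values are given below in the order cortex_163, cortex_354, cortex_358 for CCD and cortex_250, cortex_253, cortex_264 for old.

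Neurons of the prefrontal cortex signal through synapses: a presynaptic terminal fuses vesicles of glutamate or GABA with its membrane, and receptors held by scaffold proteins on the other side open ion channels. Long axons and many terminals make neurons depend on motor proteins, on mitochondria and on acidified lysosomes. In the human dementia that CCD is set beside, amyloid peptide cut from APP and aggregated tau, the product of MAPT, accumulate while synapses are lost and microglia, the immune cells of the brain, change state.

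In the CCD cortex 2 sets of differences stood out. The gene lists were chosen with earlier results of these data known, so list counts above the background describe and do not test. Genes of neurotransmission were lower: 16 of 33 vesicle release genes, 8 of 22 postsynaptic scaffold genes and 5 of 14 GABA receptor genes passed the 6-library test described next, all of them lower, where 6.81% of all tested genes did so. Of ribosomal protein genes 43 of 74 passed, all of them higher, where 2.54% of all tested genes did so. Higher genes also numbered 4 of 26 for microglia, 5 of 20 for antigen presentation and 6 of 37 for complex I. In limma with the 9 cortex libraries 0 genes passed, and without old cortex_264 the 6-library fit called 0. In that 9-library fit 5 of 74 ribosomal protein and 0 of 37 complex I genes were higher at an unadjusted p under 0.05. The share of all tested genes was 3.99%. Vesicle release genes were lower at that limit in 19 of 33, beside 10.8% of all tested genes. Young libraries lay above old in the microglia and antigen presentation lists as well. Among single genes STING1, the adaptor of cytosolic DNA sensing, averaged 387 ± 61.1 normalised counts in CCD and 136 ± 29 in old (SD, n = 3 each), and PPARD, a nuclear receptor for fatty acids, averaged 421 ± 125 in CCD and 1202 ± 183 in old.

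How many genes pass depends on which libraries measure the spread. In limma with the 9 cortex libraries in 3 groups, 0 of 19010 genes (0%) passed at an adjusted p under 0.05, the smallest being 0.290, and 758 genes with CCD higher (3.99%) and 2057 with CCD lower (10.8%) had an unadjusted p under 0.05. In limma with the 6 CCD and old libraries alone, 483 genes were higher (2.54%) and 1295 lower (6.81%). The fold changes of both fits are the same, and the young libraries enter the spread of the first alone. Below, a gene is said to be called when it passed in the fit of 6 libraries, and its SE and limma adjusted p come from that fit. No gene passed in limma with 9 libraries. The shares of 2.54% higher and 6.81% lower are the background for the counts of calls below that use all 6 libraries. Over the same 9 libraries edgeR called 0 genes, DESeq2 called 108 higher and 52 lower, and limma with library weights 384 higher and 1248 lower. All 1778 called genes (9.35% of those tested) had groups that do not overlap, against 34.5% of all tested genes, 11.9% with CCD higher and 22.6% with CCD lower. Separation of the groups in a called gene, where it is given below, therefore adds nothing to its call. Without old cortex_264 the 6-library fit called 0 genes in either direction (smallest adjusted p 0.0686, beside 1171 genes with CCD higher and 2370 with CCD lower whose unadjusted p was under 0.05), and without CCD cortex_358 it called 771 higher and 2118 lower. Without CCD cortex_163 the counts were 85 higher and 246 lower, without CCD cortex_354 90 and 306, without old cortex_250 95 and 330, and without old cortex_253 104 and 258. With edgeR on recovered reads of the 6 libraries 649 genes were called higher and 754 lower, and with quantile normalisation 681 higher and 851 lower, so that the share of lower genes among the calls was 72.8%, 53.7% and 55.5% in these 3 fits. The median tested gene lay at a log2 fold change of -0.10, which edgeR's scaling put at 0.04 and quantile normalisation at -0.01. Of the called genes, 450 higher (2.37% of tested genes) and 704 lower ones (3.70%) were called in each of these 3 fits.

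**Figure D1:**
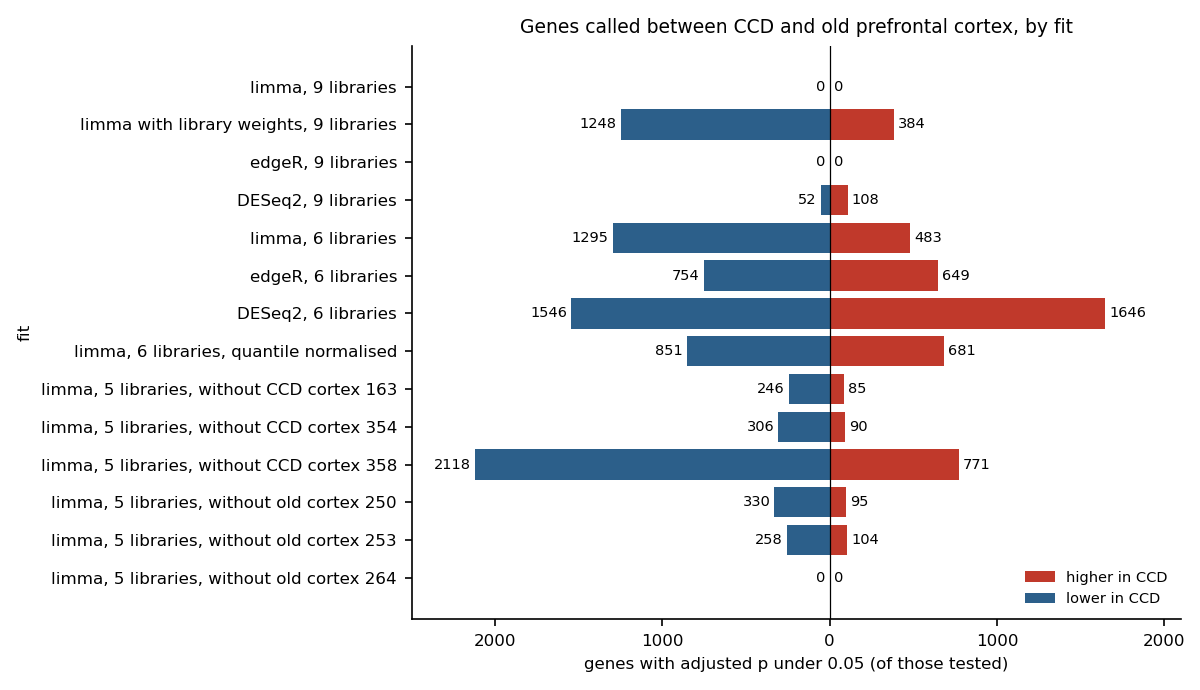
Number of genes with an adjusted p under 0.05 between CCD and old prefrontal cortex (horizontal axis; red to the right, higher in CCD; blue to the left, lower in CCD) for 14 fits. The fit of 9 libraries with limma or edgeR called 0 genes, that of 6 libraries called 483 higher and 1295 lower, and the count returned to 0 without old cortex_264.

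The libraries differed in measures other than single genes. Those of CCD held 14.9 to 18.9 M reads and those of old 24.2 to 27.5 M (17.4 ± 2.13 M against 26.2 ± 1.79 M, SD, n = 3 each; two-sided exact permutation test, p = 0.1, below which a design of 3 against 3 cannot go). Mitochondrially encoded genes took 5.94%, 8.52% and 6.58% of normalised counts in CCD, against 3.0%, 4.32% and 2.83% in old. Neither range overlaps that of the other group, and the part of depth or of RNA quality in the results below was not tested. Markers of the labelled tissue were present: SLC17A7, the vesicular glutamate transporter of cortical neurons, had at least 8713 normalised counts and GFAP, the astrocyte filament, at least 31181 in each of the 6 libraries. TTR, the leading gene of the choroid plexus, had 5.04, 24.7 and 74.4 normalised counts in CCD, against 17.5, 651 and 726 in old. Its high values were in old cortex_253 and old cortex_264 alone.

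Calls were mostly of well-expressed genes. Low genes carry more counting error and are harder to call, and its part in the counts per class was not tested. Tested genes were split by level into 4 classes. Of the highest class 722 were called lower and 185 higher, while of the lowest class 49 were called lower and 39 higher. The median log2 fold change was -0.18 in the highest class, -0.10 in the third, -0.02 in the second and -0.04 in the lowest. Among called genes 220 were at least 2-fold higher and 433 at least 2-fold lower, with a median log2 fold change of 0.93 for the higher and -0.82 for the lower.

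**Figure D2:**
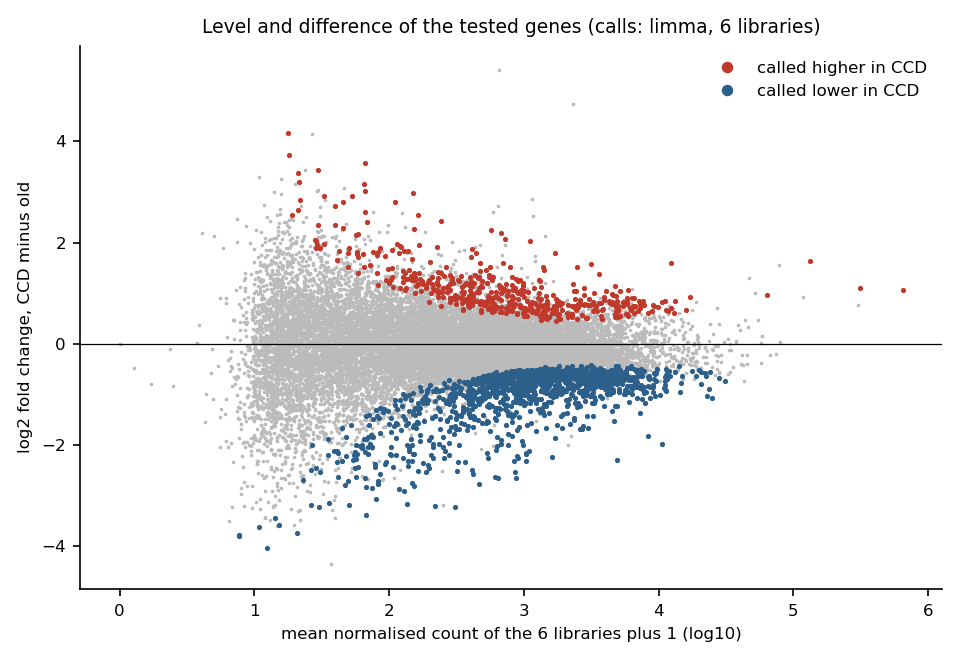
Log2 fold change, CCD minus old (vertical axis), against the mean normalised count of the 6 libraries plus 1 on a log10 scale (horizontal axis), 1 point per tested gene. Red points are the 483 genes called higher and blue points the 1295 called lower in limma with 6 libraries, and the blue points lie mostly at the high levels to the right.

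Individual CCD libraries did not depart from old cortex to the same extent. CCD cortex_163 had 708 genes more than 2-fold above all 3 old libraries and 1537 more than 2-fold below, and CCD cortex_354 had 602 above and 1418 below. In CCD cortex_358 the order was the other way round, with 921 above and 574 below. Old cortex_264 had 684 genes more than 2-fold above all 3 CCD libraries, against 380 for old cortex_250 and 436 for old cortex_253.

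Leading genes were taken only from called genes whose groups do not overlap. The 8 of smallest p with CCD higher were STING1, FER1L4, MYOM2, WDR97, MOV10, CD300LF, COL7A1 and CDH23. STING1, which passes the signal of cytosolic DNA to the interferon response, had 379, 452 and 330.3 normalised counts in CCD, against 168, 128 and 111 in old. The lowest CCD library was well above the highest old one (log2 fold change 1.51 ± 0.24, adjusted p = 0.0147). WDR97 had 1600, 1915 and 1998 normalised counts in CCD, against 765, 684 and 887 in old (log2 fold change 1.24 ± 0.15, adjusted p = 0.00967). MOV10, an RNA helicase that restrains retroelements, had 596, 884 and 960.5 normalised counts in CCD, against 376.7, 265 and 374 in old (log2 fold change 1.25 ± 0.23, adjusted p = 0.0192). Both genes separated the groups fully, with CCD cortex_163 the lowest of CCD. COL7A1, the collagen of anchoring fibrils, had 1211, 2094 and 2050 normalised counts in CCD, against 568, 249 and 529.5 in old. CCD cortex_354 and CCD cortex_358 were about equal and well above CCD cortex_163, and the 3 old libraries lay lower still (log2 fold change 2.04 ± 0.33, adjusted p = 0.0152). CDH23, a cadherin known from the tip links of inner ear hair cells, had 716, 996 and 585 normalised counts in CCD, against 351, 230.4 and 252 in old (log2 fold change 1.45 ± 0.24, adjusted p = 0.0160). FER1L4 had 1523, 1263 and 1152 normalised counts in CCD, against 629, 556 and 461 in old (log2 fold change 1.26 ± 0.17, adjusted p = 0.0130). MYOM2, a myomesin of the sarcomere, had 1756, 618 and 852 normalised counts in CCD, against 334, 319 and 311 in old. Here CCD cortex_163 was far above the other CCD libraries, while the old ones were close together (log2 fold change 1.60 ± 0.33, adjusted p = 0.0247). CD300LF, an inhibitory receptor of myeloid cells, was near the limit of detection in old cortex at 0, 2.86 and 1.71 normalised counts, against 12.6, 33.9 and 51.2 in CCD (adjusted p = 0.0348).

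Among genes with a mean of at least 100 normalised counts, the largest log2 fold changes of called genes with CCD higher belonged to MSX1, CRABP1, LACRT, RN7SL1, COL7A1, S100A4, PVALEF and SUSD3. CRABP1, which binds retinoic acid in the cytoplasm, had 629, 720.0 and 1481 normalised counts in CCD, against 218, 230.4 and 121 in old, the highest value being that of CCD cortex_358 (log2 fold change 2.26 ± 0.36, adjusted p = 0.0147). PVALEF had 199, 163.4 and 205 normalised counts in CCD, against 64.3, 27.6 and 63.4 in old (log2 fold change 1.94 ± 0.38, adjusted p = 0.0219). In PVALEF the 3 CCD libraries were alike, whereas in CRABP1 and in the genes that follow 1 library led. RN7SL1, the RNA of the signal recognition particle, which has many near-identical copies so that its count is uncertain, had 741, 2419 and 486 normalised counts in CCD, against 261, 217 and 202 in old; CCD cortex_354 led (log2 fold change 2.08 ± 0.48, adjusted p = 0.0335). LACRT had 2092, 909.7 and 414 normalised counts in CCD, against 317, 190.4 and 134 in old, led by CCD cortex_163 (log2 fold change 2.20 ± 0.52, adjusted p = 0.0361). MSX1, a homeobox factor, had 226, 89.4 and 461 normalised counts in CCD, against 55.1, 61.9 and 23.1 in old, led by CCD cortex_358 (log2 fold change 2.27 ± 0.59, adjusted p = 0.0466). S100A4, a calcium-binding protein, had 102, 162 and 273 normalised counts in CCD, against 35.9, 79 and 24.9 in old, also led by CCD cortex_358 (log2 fold change 1.97 ± 0.50, adjusted p = 0.0431). That library was the one of the 6 high in meningeal genes, as given below. In young cortex_270, cortex_353 and cortex_377, of which the last pair were also high in them, MSX1 had 74.5, 914 and 445 and S100A4 46.5, 362 and 73.4 normalised counts. CRABP1, also led by CCD cortex_358, had 389, 2591 and 838 in these young libraries. SUSD3 had 176, 252.9 and 71.9 normalised counts in CCD, against 40.1, 48.6 and 32.6 in old, with CCD cortex_358 closest to old (log2 fold change 1.86 ± 0.47, adjusted p = 0.0415; 0.0530 after quantile normalisation).

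**Figure D3:**
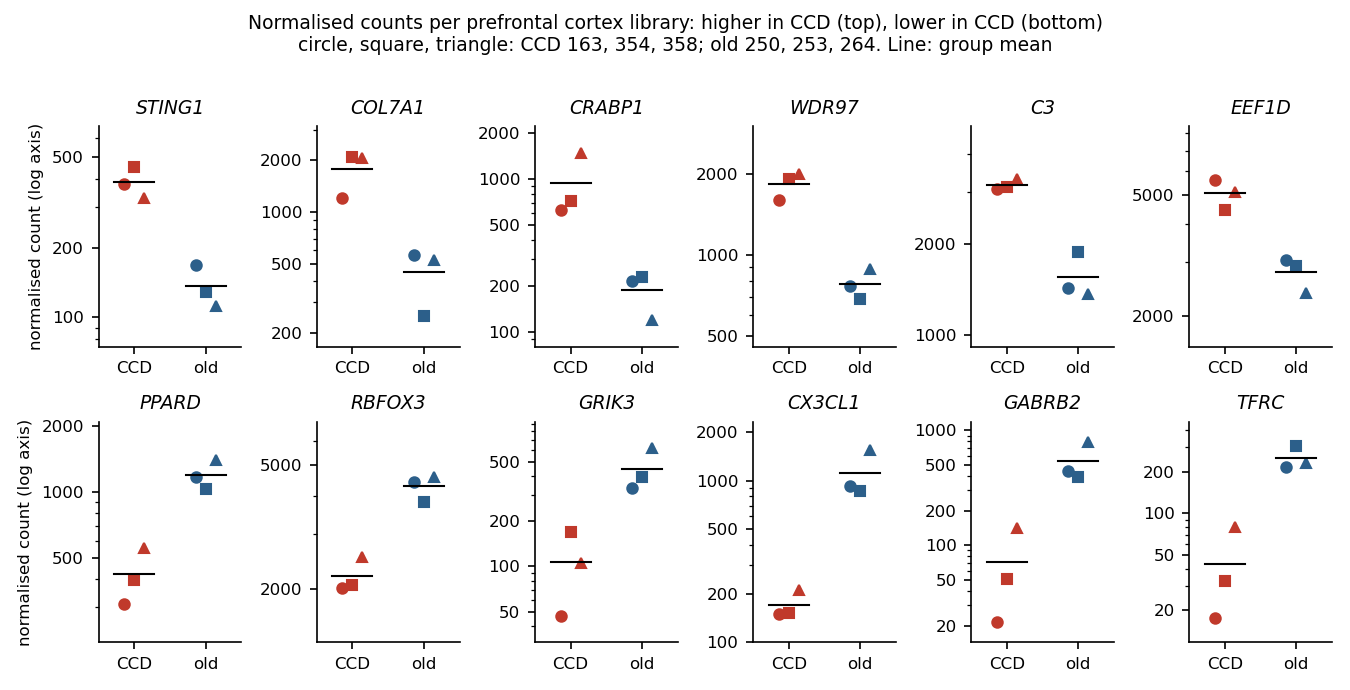
Normalised counts on a log axis (vertical) in the 3 CCD (red, left) and 3 old (blue, right) prefrontal cortex libraries for 12 of the named genes; circles, squares and triangles are the libraries in the order given in the title and the line is the group mean. The upper 6 genes have every CCD library above every old one, as STING1 with 330.3 to 452 in CCD and 111 to 168 in old, and the lower 6 have every CCD library below every old one. All of these genes were called, and no called gene has groups that overlap.

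On the lower side, by the same rule, the 8 genes of smallest p included PPARD, LRRC59, RBFOX3, RNF168, B3GALT1, CDK16 and TRHDE. PPARD had 309, 398 and 556 normalised counts in CCD, against 1169, 1039 and 1400 in old (log2 fold change -1.54 ± 0.23, adjusted p = 0.0134). RBFOX3, the splicing factor known as NeuN that marks neurons, had 2023, 2071 and 2539 normalised counts in CCD, against 4431, 3827 and 4605 in old (log2 fold change -0.96 ± 0.14, adjusted p = 0.0134). RNF168, a ubiquitin ligase that marks chromatin at DNA breaks, had 683, 697 and 717 normalised counts in CCD, against 1420, 1463 and 1201 in old (log2 fold change -0.96 ± 0.14, adjusted p = 0.0134). The CCD values of RNF168 were close together, and in all 3 genes the highest CCD library was below the lowest old one. LRRC59, a ribosome-binding protein of the endoplasmic reticulum, had 658, 608 and 912 normalised counts in CCD, against 1462, 1524 and 1567 in old (log2 fold change -1.09 ± 0.17, adjusted p = 0.0147). CDK16, a cyclin-dependent kinase abundant in neurons, had 2036, 1801 and 2268 normalised counts in CCD, against 4387, 3658 and 4460 in old (log2 fold change -1.03 ± 0.14, adjusted p = 0.0127). TRHDE, the enzyme that degrades thyrotropin-releasing hormone, had 675, 632 and 796 normalised counts in CCD, against 1239, 1708 and 1483 in old (log2 fold change -1.07 ± 0.17, adjusted p = 0.0144). In these 3 genes too the groups stood apart, as the rule for naming them required. B3GALT1, a galactosyltransferase, had 330.0, 204 and 291 normalised counts in CCD, against 621, 803 and 732 in old (log2 fold change -1.40 ± 0.22, adjusted p = 0.0144), and CCD cortex_354 was lowest.

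The largest falls among called genes with a mean of at least 100 normalised counts were those of GABRB2, TENM1, SLC7A1, SV2C, PDE1A, TFRC, ASTN1 and CX3CL1. GABRB2, a beta subunit of the GABA-A receptor, had 21.4, 50.9 and 143 normalised counts in CCD, against 445, 389 and 789 in old (log2 fold change -3.23 ± 0.59, adjusted p = 0.0192). TENM1, a teneurin of synaptic partner matching, had 7.56, 40.1 and 64.6 normalised counts in CCD, against 178, 189.5 and 290.4 in old (log2 fold change -2.92 ± 0.67, adjusted p = 0.0317). PDE1A, a calcium-dependent phosphodiesterase, had 60.5, 143 and 178 normalised counts in CCD, against 712, 766 and 928 in old (log2 fold change -2.77 ± 0.36, adjusted p = 0.0118). In each of the 3, CCD cortex_163 was lowest and CCD cortex_358 highest of CCD. TFRC, the transferrin receptor through which cells take up iron, had 17.6, 32.4 and 79.2 normalised counts in CCD, against 215, 304 and 230.5 in old (log2 fold change -2.75 ± 0.49, adjusted p = 0.0185). ASTN1, a neuronal adhesion protein of migration along glia, had 119.7, 228 and 447 normalised counts in CCD, against 1209, 1418 and 1824 in old (log2 fold change -2.66 ± 0.40, adjusted p = 0.0140). The same order of CCD libraries held for both genes. CX3CL1, the neuronal chemokine whose receptor sits on microglia, had 149.9, 153 and 211 normalised counts in CCD, against 926, 857 and 1538 in old (log2 fold change -2.65 ± 0.26, adjusted p = 0.00967). SV2C, a synaptic vesicle protein, had 31.5, 15.4 and 73.1 normalised counts in CCD, against 247, 129.5 and 417 in old (log2 fold change -2.81 ± 0.59, adjusted p = 0.0263), and SLC7A1, a transporter of cationic amino acids, had 16.4, 24.7 and 40.2 normalised counts in CCD, against 209, 113 and 299.9 in old (log2 fold change -2.87 ± 0.47, adjusted p = 0.0152). PRNP, the prion protein, was not taken by the rule for named genes and was singled out after its values were seen: it had 906, 1843 and 2555 normalised counts in CCD, against 6655, 9357 and 8114 in old (log2 fold change -2.30 ± 0.32, adjusted p = 0.0130).

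Genes of transmitter release formed the list with the largest share of lower calls. Of the 33 vesicle release genes tested, 28 had a negative log2 fold change, with a median of -0.61 beside -0.10 over all tested genes, 24 had CCD entirely below old (background 22.6%), and 16 were called lower (background 6.81%) and 0 higher. SYT1, the calcium sensor of fusion, had 14500, 14706 and 16350 normalised counts in CCD, against 29785, 32417 and 30487 in old. The libraries were alike within each group and the groups far apart (log2 fold change -1.03 ± 0.13, adjusted p = 0.00967). SV2B, a vesicle membrane protein, had 2272, 2595 and 2773 normalised counts in CCD, against 5218, 6790 and 7215 in old (log2 fold change -1.32 ± 0.15, adjusted p = 0.00967). DNM1, the dynamin that pinches vesicles off the membrane, had 13445, 16774 and 18627 normalised counts in CCD, against 34245, 32999 and 34487 in old (log2 fold change -1.07 ± 0.15, adjusted p = 0.0130). SYT2, the sensor of fast inhibitory terminals, had 213, 332 and 464 normalised counts in CCD, against 1958, 531 and 1391 in old, with old cortex_253 closest to CCD (log2 fold change -1.82 ± 0.45, adjusted p = 0.0398). Among members that were not called was SNAP25, a core protein of the fusion machinery, with 91076, 73808 and 77835 normalised counts in CCD, against 79285, 78919 and 77244 in old, where the groups overlap (log2 fold change 0.04 ± 0.16, and -0.46 after quantile normalisation of the 6 libraries). Without old cortex_264 the list median was -0.58, and without CCD cortex_358 it was -0.65, with 16 of 33 called lower. The fit without CCD cortex_358 called 2118 of all 19010 tested genes lower.

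On the receiving side, 16 of 20 ionotropic glutamate receptor genes were negative (median -0.51) and 5 were called lower, namely GRIA2, GRIN1, GRIK3, CACNG8 and CNIH3. All 7 metabotropic glutamate receptor genes tested were negative (median -0.62), and 3 were called lower, among them GRM5 and GRM7. GRIA2, the AMPA receptor subunit that keeps calcium out, had 3118, 2792 and 3325 normalised counts in CCD, against 5067, 5541 and 6002 in old (log2 fold change -0.85 ± 0.13, adjusted p = 0.0139). GRIK3, a kainate receptor subunit, had 46.6, 169.6 and 105 normalised counts in CCD, against 334, 397 and 617 in old (log2 fold change -2.19 ± 0.44, adjusted p = 0.0245). Both had every CCD library below every old one, and GRIK3 differed more in fold. CACNG8, an auxiliary subunit of AMPA receptors, had 215, 133 and 166 normalised counts in CCD, against 474, 382 and 686 in old (log2 fold change -1.56 ± 0.27, adjusted p = 0.0173). GRM7, a presynaptic receptor that dampens release, had 273, 299 and 347 normalised counts in CCD, against 514, 574 and 487 in old (log2 fold change -0.78 ± 0.18, adjusted p = 0.0317). GRM5, an excitatory metabotropic receptor, had 2642, 2151 and 1945 normalised counts in CCD, against 2988, 3932 and 3432 in old (log2 fold change -0.62 ± 0.16, adjusted p = 0.0427; 0.0961 after quantile normalisation).

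Postsynaptic scaffolds were negative in 20 of 22 members (median -0.52), with 8 called lower and 0 higher. DLGAP1, which links the outer scaffold to SHANK proteins, had 406, 273 and 559.5 normalised counts in CCD, against 1293, 1637 and 2417 in old (log2 fold change -2.12 ± 0.29, adjusted p = 0.0130). SHANK2 had 645, 561 and 622 normalised counts in CCD, against 1087, 1297 and 1674 in old (log2 fold change -1.13 ± 0.18, adjusted p = 0.0147). PPP3CA, the catalytic subunit of calcineurin, had 840.2, 1005 and 2017 normalised counts in CCD, against 3664, 3115 and 5004 in old (log2 fold change -1.69 ± 0.31, adjusted p = 0.0190). CCD cortex_358 was the highest of CCD in DLGAP1 and PPP3CA but below all old libraries in both. Of GABA receptor genes 13 of 14 were negative (median -0.62) and 5 were called lower, among them GABRB2, GABRG3 and GABBR1. GABRG3, a gamma subunit, had 304, 325 and 345 normalised counts in CCD, against 752, 732 and 845 in old. The libraries were alike within each group (log2 fold change -1.25 ± 0.16, adjusted p = 0.00967). GABBR1, the ligand-binding subunit of the GABA-B receptor, had 2619, 3788 and 6356 normalised counts in CCD, against 11924, 8265 and 10855 in old (log2 fold change -1.36 ± 0.29, adjusted p = 0.0263).

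Synaptic adhesion genes split into 20 negative and 2 positive (median -0.63), with 8 called lower and 1 higher. LRRTM2, a postsynaptic partner of neurexins, had 63, 117 and 161 normalised counts in CCD, against 319, 403 and 445 in old (log2 fold change -1.85 ± 0.34, adjusted p = 0.0192). NRXN3, a neurexin, had 2194, 1519 and 2003 normalised counts in CCD, against 2811, 3099 and 3494 in old (log2 fold change -0.73 ± 0.16, adjusted p = 0.0304), and SLITRK3, an organiser of inhibitory synapses, had 242, 224 and 333 normalised counts in CCD, against 553, 483 and 631 in old (log2 fold change -1.07 ± 0.21, adjusted p = 0.0230). All 3 had the groups apart. NLGN1, the neuroligin of excitatory synapses, was the exception, with 3217, 2185 and 1682 normalised counts in CCD, against 1285, 1424 and 1142 in old (log2 fold change 0.83 ± 0.22, adjusted p = 0.0475). Its highest value was that of CCD cortex_163.

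**Figure D4:**
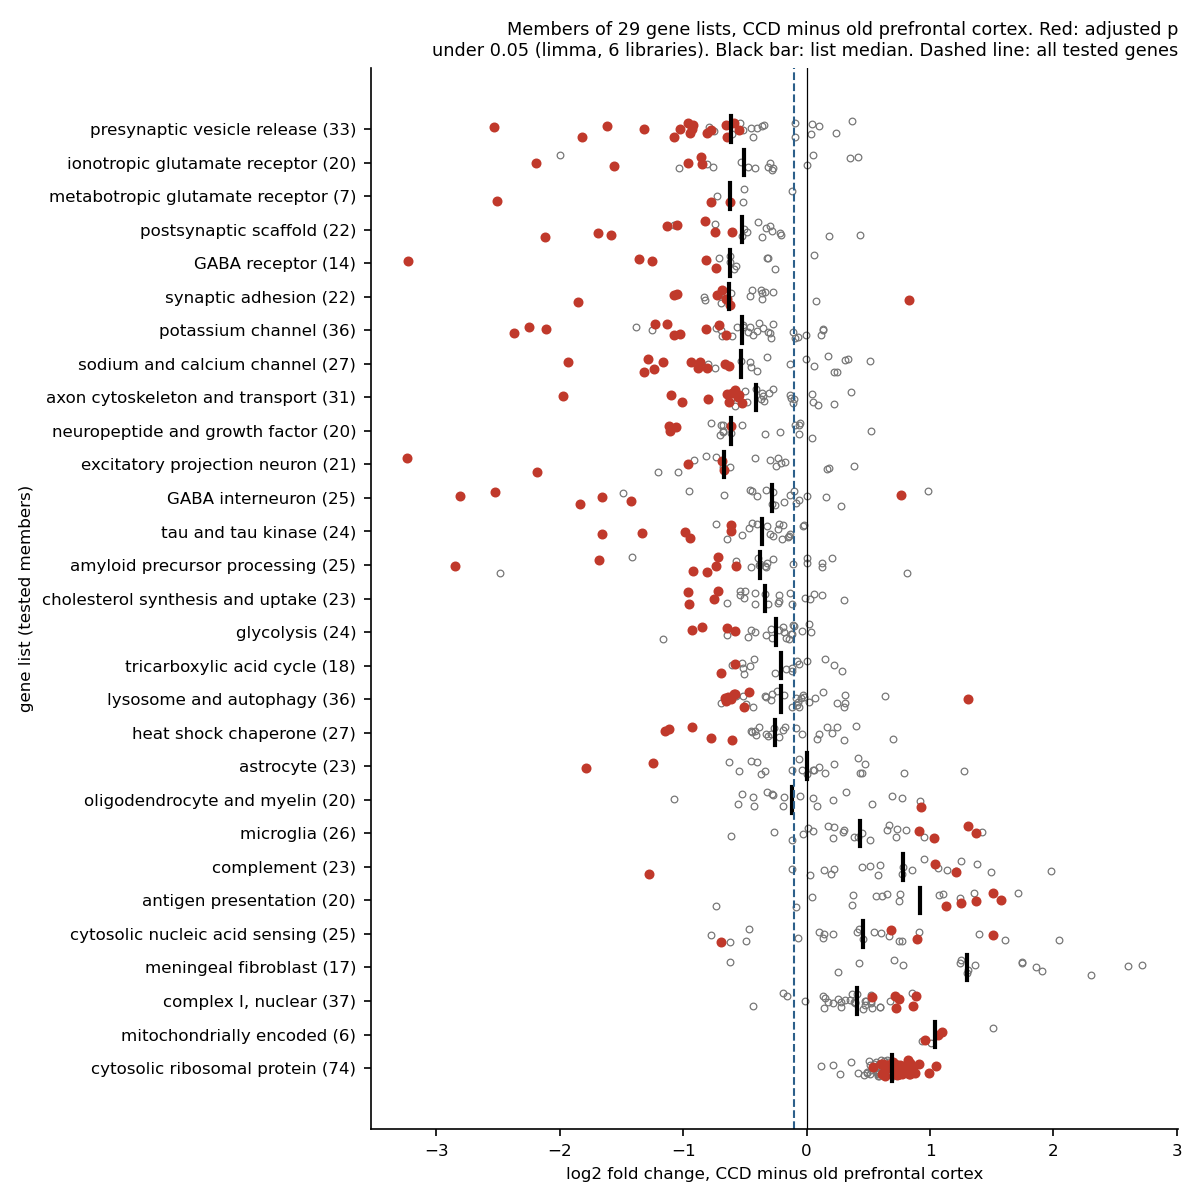
Log2 fold change, CCD minus old prefrontal cortex (horizontal axis), of the tested members of 29 gene lists (vertical axis, number of members in parentheses). Red points were called in limma with 6 libraries, black bars are list medians and the dashed line is the median of all tested genes at -0.10; the synaptic and channel lists at the top lie left of it with medians of -0.51 to -0.63, and the 74 ribosomal protein genes at the bottom lie right of 0.

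Ion channel genes were mostly negative as well. Of 36 potassium channel genes 33 were negative (median -0.52) and 10 were called lower, and of 27 sodium and calcium channel genes 20 were negative (median -0.53) and 11 were called lower; 0 of either list were called higher. SCN2B, an auxiliary sodium channel subunit, had 2785, 2532 and 3357 normalised counts in CCD, against 6365, 5672 and 8580 in old (log2 fold change -1.24 ± 0.18, adjusted p = 0.0134). SCN3B, another such subunit, had 5020, 4778 and 4737 normalised counts in CCD, against 8280, 13273 and 11728 in old (log2 fold change -1.17 ± 0.17, adjusted p = 0.0138). KCNJ6, a G-protein-gated potassium channel, had 309.9, 261 and 358.4 normalised counts in CCD, against 619.8, 651 and 678 in old (log2 fold change -1.08 ± 0.18, adjusted p = 0.0154). The CCD libraries were alike in each and below every old library. CACNB2, a calcium channel beta subunit, had 811, 718 and 1282 normalised counts in CCD, against 1665, 1605 and 1954 in old (log2 fold change -0.93 ± 0.21, adjusted p = 0.0317).

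Genes of the axon and its transport were negative in 26 of 31 (median -0.41), with 11 called lower and 0 higher; KIF1A, KIF1B and ANK2 were the 3 also called with edgeR and after quantile normalisation. KIF1A, the kinesin that carries synaptic vesicle precursors, had 2390, 5025 and 6180 normalised counts in CCD, against 13204, 16941 and 20280 in old (log2 fold change -1.98 ± 0.32, adjusted p = 0.0150). KIF1B, its close relative, had 4472, 5216 and 4799 normalised counts in CCD, against 9451, 10397 and 11157 in old (log2 fold change -1.10 ± 0.12, adjusted p = 0.00967). ANK2, an ankyrin of the axon shaft, had 7360, 6109 and 6918 normalised counts in CCD, against 12160, 14860 and 14098 in old (log2 fold change -1.01 ± 0.13, adjusted p = 0.0122). KIF1B and ANK2 were even within each group, while KIF1A in CCD cortex_163 was well below the other CCD libraries. GAP43, a protein of growing axon ends, had 2374, 2521 and 2064 normalised counts in CCD, against 2823, 3835 and 3787 in old; its call was not held by edgeR (log2 fold change -0.58 ± 0.15, adjusted p = 0.0494; 0.0969 with edgeR). Of 20 neuropeptide and growth factor genes 18 were negative (median -0.61) and 4 were called lower, the secretory granule genes PCSK1, PCSK2 and SCG3, and NPTXR; without CCD cortex_354 the median was -0.40 and without old cortex_264 -0.38. PCSK2, a convertase that cuts prohormones, had 2115, 1705 and 2712 normalised counts in CCD, against 4255, 4579 and 5027 in old (log2 fold change -1.11 ± 0.17, adjusted p = 0.0144). Genes switched on by neuronal activity were not called in either direction: 0 of 18, with 8 positive and 10 negative. Beside backgrounds of 6.81% lower and 2.54% higher, a count of 0 in so short a list is not read as a result about it.

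Marker genes of the neurons themselves were mostly negative. Of 21 excitatory projection neuron genes 18 were negative (median -0.67) and 5 were called lower, among them SLC17A7, TBR1, BCL11B and TLE4. SLC17A7 had 8713, 10424 and 9982 normalised counts in CCD, against 19511, 17046 and 20175 in old (log2 fold change -0.96 ± 0.13, adjusted p = 0.0130). TBR1, a factor of deep-layer neurons, had 146, 632 and 492 normalised counts in CCD, against 1855, 1513 and 1536 in old, with CCD cortex_163 far below the other CCD libraries (log2 fold change -2.19 ± 0.45, adjusted p = 0.0254). BCL11B, a factor of subcortical projection neurons, was low throughout at 7.56, 7.71 and 1.22 normalised counts in CCD, against 51.8, 36.2 and 69.4 in old (log2 fold change -3.23 ± 0.70, adjusted p = 0.0278). The interneuron list had 20 of 25 members negative (median -0.28), with 5 called lower and 1 higher; the median was -0.10 without CCD cortex_354 and -0.52 without CCD cortex_163. GAD1 and GAD2 make GABA; GAD1 had 773, 756 and 1699 normalised counts in CCD, against 2590, 2188 and 3374 in old (log2 fold change -1.42 ± 0.30, adjusted p = 0.0269) and GAD2 had 44.1, 30.8 and 111 normalised counts in CCD, against 284, 305 and 350.4 in old (log2 fold change -2.52 ± 0.43, adjusted p = 0.0166). ADARB2, a marker of interneurons of caudal origin, had 99.5, 57 and 115 normalised counts in CCD, against 241, 341 and 369 in old (log2 fold change -1.84 ± 0.32, adjusted p = 0.0170). PVALB, the calcium buffer of fast-spiking interneurons, was the 1 higher member, with 4951, 4379 and 3302 normalised counts in CCD, against 2704, 2298 and 2354 in old (log2 fold change 0.76 ± 0.16, adjusted p = 0.0277). Neuronal RNA-binding genes, RBFOX3 among them, were closer to all genes (17 of 23 negative, median -0.17, 4 called lower, of which only RBFOX3 was also called with edgeR and after quantile normalisation), and their median was -0.01 after quantile normalisation and -0.05 without CCD cortex_358.

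All 24 tested genes of tau and its kinases had a negative log2 fold change (57.1% of all tested genes did; median -0.36), 17 had CCD entirely below old (background 22.6%), and 6 were called lower (background 6.81%). MAPT had 4314, 4647 and 4599 normalised counts in CCD, against 6536, 7137 and 7101 in old (log2 fold change -0.61 ± 0.11, adjusted p = 0.0192). CDK5R1, an activator of the tau kinase CDK5, had 753, 971 and 1062 normalised counts in CCD, against 2523, 2896 and 3340 in old (log2 fold change -1.66 ± 0.17, adjusted p = 0.00967). CDK5R2, the other activator, had 241, 367 and 453 normalised counts in CCD, against 905, 758 and 939 in old (log2 fold change -1.33 ± 0.24, adjusted p = 0.0178). Both activators of CDK5 differed more in fold than MAPT did. MARK4, a kinase of the microtubule-binding repeats, had 748, 1115 and 892 normalised counts in CCD, against 1668, 2044 and 1552 in old (log2 fold change -0.94 ± 0.18, adjusted p = 0.0210). Of 25 genes of amyloid precursor processing 20 were negative (median -0.38) and 7 were called lower. APP had 19129, 24121 and 27112 normalised counts in CCD, against 36654, 39020 and 40158 in old (log2 fold change -0.73 ± 0.16, adjusted p = 0.0280; 0.0592 after quantile normalisation). APH1B, a subunit of gamma-secretase, had 8.82, 30.8 and 17.1 normalised counts in CCD, against 98.6, 145 and 145 in old (log2 fold change -2.85 ± 0.49, adjusted p = 0.0166). PSEN2, a catalytic subunit of the same enzyme, had 579.5, 718 and 839.9 normalised counts in CCD, against 1234, 1324 and 1445 in old (log2 fold change -0.92 ± 0.17, adjusted p = 0.0192). SORCS1, a sorting receptor for APP, had 161, 148 and 149 normalised counts in CCD, against 443, 384 and 705 in old (log2 fold change -1.69 ± 0.25, adjusted p = 0.0139). Every one of these kept CCD below old. Genes of Alzheimer risk loci stood near all genes, with 13 positive, 17 negative and a median of -0.06 that was 0.10 after quantile normalisation; SORL1 (log2 fold change -0.72 ± 0.15, adjusted p = 0.0266) and PTK2B (log2 fold change -0.73 ± 0.15, adjusted p = 0.0251) were called lower. APOE had 47479, 76462 and 67321 normalised counts in CCD, against 50391, 54706 and 33617 in old, where the groups overlap (log2 fold change 0.47 ± 0.24, adjusted p = 0.232), and TREM2, a microglial receptor, had 8.82, 67.8 and 34.1 normalised counts in CCD, against 23.4, 26.7 and 30.8 in old, where they overlap as well.

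Ribosomal protein genes went the other way as a body. All 74 tested were positive (median 0.69 beside -0.10 over all tested genes), 65 had CCD entirely above old (background 11.9%), and 43 were called higher (background 2.54%); each of the 43 was also called with edgeR and after quantile normalisation. RPS15A had 4365, 3825 and 3606 normalised counts in CCD, against 2014, 2645 and 1818 in old (log2 fold change 0.88 ± 0.16, adjusted p = 0.0192). RPL10A had 5272, 4405 and 4676 normalised counts in CCD, against 3189, 3158 and 2533 in old (log2 fold change 0.70 ± 0.14, adjusted p = 0.0238). RPL37 had 10792, 8047 and 6126 normalised counts in CCD, against 3904, 5451 and 3751 in old (log2 fold change 0.91 ± 0.22, adjusted p = 0.0367). The groups stood apart in each of the 3. In limma with 9 libraries 5 of the 74 were higher at an unadjusted p under 0.05 (background 3.99%). Ribosomal protein genes have many processed pseudogenes, between which reads can be split. Together they took 3.48%, 2.77% and 2.61% of normalised counts in CCD, against 1.82%, 2.25% and 1.59% in old. Of 40 elongation and initiation factor genes 18 were positive and 22 negative (median -0.03). Calls numbered 3 higher (background 2.54%) and 2 lower (background 6.81%), too few to be read as a result about the list. EEF1D, a subunit of an elongation factor, was called higher with 5613, 4470 and 5099 normalised counts in CCD, against 3041, 2927 and 2371 in old (log2 fold change 0.87 ± 0.14, adjusted p = 0.0159), as were EEF1B2 and EIF3K. EIF4G3 was called lower with 2582, 2658 and 3442 normalised counts in CCD, against 4571, 4237 and 5582 in old (log2 fold change -0.73 ± 0.16, adjusted p = 0.0279), as was EIF5.

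Energy genes split by type. Of 37 nuclear genes of complex I 33 were positive (median 0.41) and 6 were called higher. In limma with 9 libraries 0 of the 37 were higher at an unadjusted p under 0.05 (background 3.99%). NDUFB9 had 8289, 7529 and 7044 normalised counts in CCD, against 4799, 4557 and 4562 in old (log2 fold change 0.71 ± 0.12, adjusted p = 0.0154), and NDUFA1 had 2197, 1850 and 1363 normalised counts in CCD, against 1021, 1235 and 930.4 in old (log2 fold change 0.75 ± 0.19, adjusted p = 0.0456). Both are small accessory subunits, and both had every CCD library above every old one. All 6 tested mitochondrially encoded genes were positive (median 1.04), with 3 called higher, CYTB, ND4 and ND4L; after quantile normalisation the median was 0.52 and 0 of the 3 were called. CYTB, which encodes cytochrome b in complex III, had 374105, 523882 and 376210 normalised counts in CCD, against 191553, 240244 and 163412 in old (log2 fold change 1.10 ± 0.25, adjusted p = 0.0306). Of nuclear genes of complexes II to V, UQCRQ was called higher and SDHA, UQCRC2 and ATP5F1B lower, with medians of 0.06 for complexes II and III (12 genes) and 0.24 for complexes IV and V (14 genes). SDHA, the catalytic subunit of complex II, had 3576, 3782 and 4609 normalised counts in CCD, against 6405, 5466 and 5912 in old (log2 fold change -0.58 ± 0.14, adjusted p = 0.0353), and ATP5F1B, of the ATP synthase, had 10463, 9809 and 14603 normalised counts in CCD, against 20216, 16098 and 17652 in old (log2 fold change -0.65 ± 0.17, adjusted p = 0.0495). Neither they nor UQCRC2 were called with edgeR or after quantile normalisation (adjusted p 0.0680 for SDHA and 0.0683 for ATP5F1B in limma after quantile normalisation). Mitochondrial ribosomal proteins had 49 of 74 positive (median 0.19, and 0.07 without CCD cortex_163), with 3 called higher and 1 lower.

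Calls among genes of fuel metabolism were lower ones. Of 24 glycolysis genes 22 were negative (median -0.25) and 4 were called lower, HK1, PFKM, SLC2A3 and SLC16A3; of 18 genes of the tricarboxylic acid cycle 14 were negative (median -0.21) and 2 were called lower, DLST among them. After quantile normalisation the medians were -0.14 for glycolysis and -0.05 for the cycle, beside -0.01 over all tested genes, and HK1, PFKM and DLST were the calls that edgeR and quantile normalisation both made. PFKM, a phosphofructokinase, had 4836, 6058 and 7755 normalised counts in CCD, against 11432, 10199 and 11364 in old (log2 fold change -0.85 ± 0.17, adjusted p = 0.0247). HK1, the hexokinase of brain, had 5022, 5756 and 6495 normalised counts in CCD, against 9006, 8371 and 9472 in old (log2 fold change -0.64 ± 0.13, adjusted p = 0.0255). DLST, a subunit of the oxoglutarate dehydrogenase complex, had 1109, 1098 and 1433 normalised counts in CCD, against 2094, 1733 and 2054 in old (log2 fold change -0.70 ± 0.15, adjusted p = 0.0291). In all 3, CCD cortex_358 was nearest to old. Cholesterol genes were negative in 19 of 23 (median -0.34) with 4 called lower, among them DHCR7, an enzyme of the late pathway, and SREBF2, the activator of its genes. DHCR7 had 368, 339 and 562 normalised counts in CCD, against 748, 753 and 917 in old (log2 fold change -0.96 ± 0.21, adjusted p = 0.0304), and SREBF2 had 2237, 2795 and 2980 normalised counts in CCD, against 4396, 3971 and 5058 in old (log2 fold change -0.75 ± 0.15, adjusted p = 0.0246). CYP46A1, the neuronal enzyme that turns cholesterol over, was called lower as well, with 3118, 2903 and 4044 normalised counts in CCD, against 4951, 6187 and 5344 in old (log2 fold change -0.72 ± 0.16, adjusted p = 0.0280).

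Of 36 lysosome and autophagy genes 8 were called lower, 1 of which, ATP6V1B2, was also called with edgeR and after quantile normalisation; the 8 include 5 subunits of the proton pump of the lysosome, ATP6V0A1, ATP6V0D1, ATP6V1A, ATP6V1B2 and ATP6V1E1. ATP6V0D1 had 4978, 5295 and 6198 normalised counts in CCD, against 7900, 7679 and 7712 in old (log2 fold change -0.51 ± 0.12, adjusted p = 0.0388; 0.0885 after quantile normalisation). The protease CTSZ was the 1 member called higher, with 655, 524 and 508 normalised counts in CCD, against 327, 209.5 and 165 in old (log2 fold change 1.31 ± 0.26, adjusted p = 0.0242). Chaperones called lower were HSPA4, HSPA4L, HSPH1, DNAJC6 and CCT4, 5 of 27. CCT4 was not called with edgeR (adjusted p 0.0682) or in limma after quantile normalisation (adjusted p 0.0784). DNAJC6, or auxilin, which strips clathrin from vesicles in neurons, had 3357, 3724 and 4227 normalised counts in CCD, against 7252, 8784 and 9088 in old (log2 fold change -1.15 ± 0.14, adjusted p = 0.00967). HSPA4, a nucleotide exchange factor of other heat shock proteins, had 972, 1048 and 1319 normalised counts in CCD, against 2051, 1931 and 2358 in old (log2 fold change -0.93 ± 0.16, adjusted p = 0.0159). Both had the groups apart. Genes of the unfolded protein response had 20 of 24 negative and 4 called lower, SYVN1, ATF6, CANX and ASNS, the first pair also with edgeR and after quantile normalisation; SYVN1, a ubiquitin ligase of the endoplasmic reticulum, had 3756, 4499 and 5082 normalised counts in CCD, against 7506, 8433 and 8867 in old (log2 fold change -0.90 ± 0.14, adjusted p = 0.0149). Proteasome genes were balanced, 15 positive and 16 negative, with PSMA4 called higher and PSMD11 lower, and their median of -0.02 was 0.10 after quantile normalisation. Of 28 genes of senescence and DNA repair ATM, RNF168 and PARP1 were called lower, ATM with 37.8, 81.7 and 118 normalised counts in CCD, against 251, 196 and 323 in old (log2 fold change -1.80 ± 0.41, adjusted p = 0.0323). PARP1 was not called with edgeR (adjusted p 0.0822) or in limma after quantile normalisation (adjusted p 0.106). Of 15 genes induced by glucocorticoids MAP3K6 was called higher and KLF9 lower, the second with 193, 139 and 294 normalised counts in CCD, against 505, 694 and 696 in old (log2 fold change -1.65 ± 0.28, adjusted p = 0.0166). Of 18 circadian clock genes CLOCK, a core gene of the daily rhythm, was called lower, with 484, 463 and 505 normalised counts in CCD, against 755, 786 and 947 in old (log2 fold change -0.77 ± 0.16, adjusted p = 0.0246), and 0 higher. Among 25 antioxidant and iron genes TFRC and GCLC were called lower and SOD1 higher, and among 29 genes that silence or restrict retroelements MOV10 was called higher and ATRX lower. Of all tested genes 6.81% were called lower and 2.54% higher. The few calls among clock, glucocorticoid, senescence, antioxidant, proteasome and retroelement genes are not read as results about these lists.

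Immune genes were higher in smaller numbers. In every young library too, the microglia, complement and antigen presentation lists lay above all old libraries, as given below. Of 26 microglia genes 22 were positive (median 0.43) and 4 were called higher. FCER1G, an adaptor of Fc receptors, had 581, 748 and 611 normalised counts in CCD, against 272, 338 and 189 in old (log2 fold change 1.31 ± 0.24, adjusted p = 0.0186). LAPTM5, a lysosomal protein of leukocytes, had 1844, 1678 and 1475 normalised counts in CCD, against 949.7, 1037 and 702 in old (log2 fold change 0.91 ± 0.18, adjusted p = 0.0217). AIF1, also known as IBA1, had 317, 362 and 301 normalised counts in CCD, against 149.5, 221 and 122 in old (log2 fold change 1.03 ± 0.26, adjusted p = 0.0413). In these 3 the highest library was CCD cortex_354 or CCD cortex_163. Of 20 antigen presentation genes 18 were positive (median 0.92) and 5 were called higher, DLA88, HLA-DRB1, DLA-DMB, PSMB8 and CD74. DLA88, a class I molecule whose counts may be shared with near-identical genes, had 3988, 3085 and 7261 normalised counts in CCD, against 1723, 1814 and 1080 in old (log2 fold change 1.57 ± 0.31, adjusted p = 0.0220). PSMB8, an immunoproteasome subunit, had 224, 233 and 173 normalised counts in CCD, against 106, 103 and 60 in old (log2 fold change 1.25 ± 0.30, adjusted p = 0.0377). Of 23 complement genes 21 were positive (median 0.78), with C3 and C3AR1 called higher and C5AR1 lower; without old cortex_264 the median was 0.47. C3, the central complement protein, had 3074, 3119 and 3308 normalised counts in CCD, against 1427, 1881 and 1367 in old, the CCD values lying close together (log2 fold change 1.04 ± 0.15, adjusted p = 0.0134). Of 25 genes that sense nucleic acids in the cytosol 19 were positive (median 0.46); STING1, UNC93B1 and IKBKE were called higher and ADAR lower. IKBKE, a kinase of the interferon response, had 1505, 1657 and 1499 normalised counts in CCD, against 991, 853 and 1074 in old (log2 fold change 0.68 ± 0.14, adjusted p = 0.0248), and ADAR, an editing enzyme of double-stranded RNA, had 1747, 2370 and 2461 normalised counts in CCD, against 3643, 3055 and 3908 in old (log2 fold change -0.70 ± 0.17, adjusted p = 0.0353; 0.0733 after quantile normalisation). Of 27 interferon-stimulated genes 0 were called higher, and MX1 was called lower, with 2247, 1767 and 2443 normalised counts in CCD, against 3966, 3545 and 4029 in old (log2 fold change -0.85 ± 0.15, adjusted p = 0.0170). CCL2, which attracts monocytes, had 66.8, 69.4 and 87.8 normalised counts in CCD, against 10, 16.2 and 18 in old (log2 fold change 2.29 ± 0.44, adjusted p = 0.0209), and was the 1 gene called among 20 of the NF-kB list.

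Markers of the meninges, which could be part of the piece, were examined beside these lists. Of 17 tested meningeal fibroblast genes 16 were positive (median 1.30) and 0 were called, and none of the 18 in the table was at 0 in all libraries. Their summed normalised counts were 34420, 26600 and 198600 in CCD, against 22690, 32720 and 15170 in old, so CCD cortex_358 stood alone. Without that library the meningeal median was 0.01, and the medians of the complement, microglia, antigen presentation and nucleic acid sensing lists were 0.24, 0.28, 0.83 and 0.50. The fit without it called 4 of 26 microglia, 4 of 20 antigen presentation, 3 of 25 nucleic acid sensing and 1 of 23 complement genes higher. Of all 19010 tested genes that fit called 771 higher and 2118 lower. The complement count is near that share and is not read as a result about the list. Endothelial and pericyte medians, at 0.25 and 0.46 with all libraries, were -0.18 and -0.24 without it. Those of the interferon and NF-kB lists, at 0.38 and 0.16, were 0.07 and 0.01. Of the other sources of cells, 3 of 13 choroid plexus genes and 6 of 11 blood cell genes were positive, with 0 called.

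Astrocyte and oligodendrocyte lineage genes showed no common direction. Of 23 astrocyte genes 12 were positive and 11 negative (median 0.00), and HEPACAM and SOX9 were called lower. HEPACAM, an adhesion protein of astrocyte end feet, had 217, 436 and 412 normalised counts in CCD, against 1200, 1086 and 1241 in old (log2 fold change -1.79 ± 0.26, adjusted p = 0.0134). SOX9, a factor of astrocyte identity, had 207, 156 and 278 normalised counts in CCD, against 504, 518 and 463 in old (log2 fold change -1.25 ± 0.23, adjusted p = 0.0204). GFAP had 48559, 54185 and 48153 normalised counts in CCD, against 33339, 45787 and 31181 in old, with the CCD values above the old ones but not called (log2 fold change 0.47 ± 0.18, adjusted p = 0.116). Of 20 myelin genes 9 were positive and 11 negative. BCAS1, a marker of newly myelinating oligodendrocytes, was called higher with 23810, 28833 and 15484 normalised counts in CCD, against 11415, 13335 and 10110 in old (log2 fold change 0.93 ± 0.22, adjusted p = 0.0359). Of 12 oligodendrocyte precursor genes 6 were positive and 6 negative (median 0.01), 2 had CCD entirely above old and 2 entirely below. The 1 called gene was C1QL1, a secreted protein of these cells, higher with 1219, 1323 and 1448 normalised counts in CCD, against 611, 939 and 464 in old (log2 fold change 1.04 ± 0.24, adjusted p = 0.0314).

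Young libraries, which took no part in the 6-library fit, were set on the scale between the CCD and old means for the called genes. Of the 1295 genes called lower in CCD, 53.1% in young cortex_270, 82.3% in young cortex_353 and 3.78% in young cortex_377 lay nearer the CCD mean than the old mean on the log2 scale. In young cortex_377 904 of them (69.8%) exceeded all 3 old libraries, against 83 (6.41%) in young cortex_270 and 4 (0.309%) in young cortex_353. For the 483 genes called higher the shares nearer CCD were 56.3%, 86.3% and 9.32% in the same order. GABRB2 had 352.6, 74.6 and 2599 normalised counts in young cortex_270, cortex_353 and cortex_377, and KIF1A had 4429, 5058 and 32490. Ribosomal protein scores, each being the middle value among members of the log2 difference from the old mean, were 0.93, 0.59 and 0.51 in CCD, and 0.70, 0.74 and -0.83 in these young libraries. Microglia scores were 0.93, 1.17 and 0.29 there, beside 0.37, 0.22 and 0.84 in CCD and -0.16 to 0.12 in old. Antigen presentation scores were 1.03, 1.69 and 0.26 in young, beside 0.52, 0.81 and 1.21 in CCD and -0.11 to 0.07 in old. Complement scores were 0.68, 1.97 and 0.79 in young, beside 0.34, 0.31 and 1.38 in CCD and -0.28 to 0.25 in old. STING1 had 357, 415 and 226 normalised counts and C3 5736, 3227 and 2544 in these young libraries. The young libraries held 22.3, 22.8 and 31.4 M reads in that order, and the part of depth was not tested. The genes were chosen on their CCD and old values, so their distance from old in any young library is partly set by that choice.

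**Figure D5:**
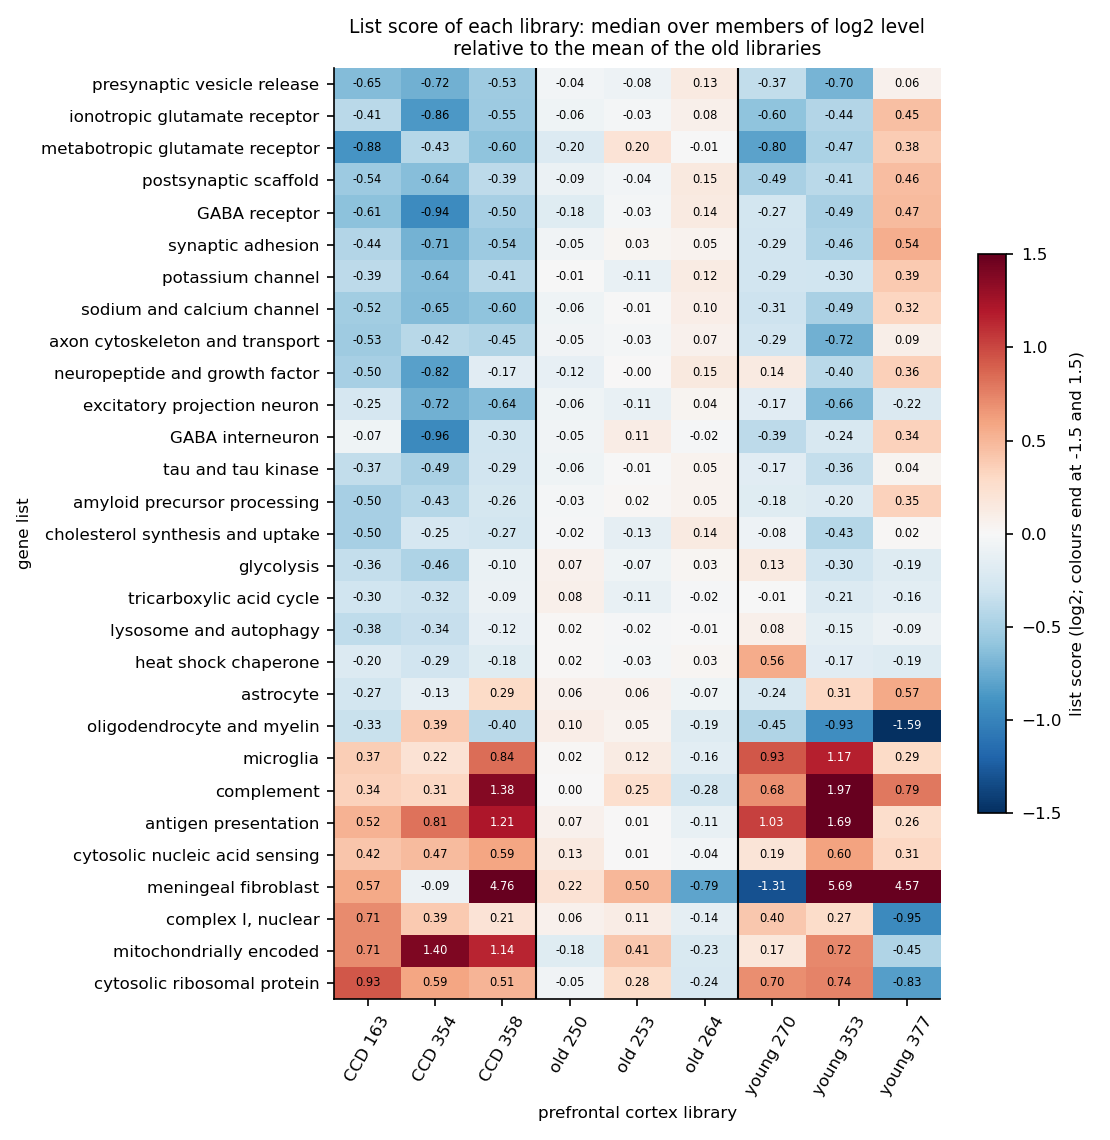
List scores of the 9 prefrontal cortex libraries (columns; CCD, old, then young), each the middle value among a list's tested members of the log2 difference from the mean of the 3 old libraries, for 29 gene lists. Vesicle release scores are -0.65, -0.72 and -0.53 in CCD and -0.08 to 0.13 in old; young cortex_353 resembles CCD at -0.70 while young cortex_377 is at 0.06, and the meningeal score of 4.76 sets CCD cortex_358 apart from the other CCD libraries, with young cortex_353 at 5.69 and young cortex_377 at 4.57.

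In plasma EVs, measured in 4 CCD and 4 old libraries, 1768 of the 1778 called genes were tested and 0 passed in limma over the 12 EV libraries (background 0%). At an unadjusted p under 0.05 there were 156 of them, 8.82%, beside 5.98% of all 31728 genes tested in EVs. Of the 31 genes named for their p or fold, 5 had EV groups that do not overlap (background 5.93%), 3 of them in the direction of the cortex and 2 in the opposite one.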

How the data were processed

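Polyadenylated RNA of prefrontal cortex was sequenced per the labels' protocols, and reads were handled with STAR and DESeq2 per the submitters' processing notes. The sources used here name no version, genome build, annotation or counting tool. Deposited is a signal per gene, which the authors made, a normalised count in which every cortex library sums to the same total. Dividing by a factor per library returned whole reads in 100% of cases within 0.01 of a whole number; the factor of young cortex_353 is near 1, so the test says little there. Reads per library are 14.9 to 31.4 M in cortex, and counting error weighs most on low genes.

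Genes with a mean of at least 10 over the 9 cortex libraries were tested as log2 of the value plus 1 with limma 3.58.1 in R 4.3.3, moderated with a trend, in a fit of 3 groups and, as the first alternative, with the 6 libraries of CCD and old alone. Adjusted p-values are Benjamini-Hochberg values over all 19010 tested genes with a threshold of 0.05. Fold changes are on the log2(value + 1) scale, which understates those of low genes. Recovered reads were tested with edgeR 4.0.16 (quasi-likelihood) and DESeq2 1.42.0. On simulated data with changes planted in CCD, limma recovered 13.2%, 75.8% and 86.2% of genes changed 2-fold, 4-fold and 8-fold with 9 libraries, calling 4 unchanged genes among 19037, and 38.0%, 87.3% and 96.6% with 6 libraries, calling 7 among 18694. The simulation drew each gene on its own, with no shift shared by the genes of a library. Its false calls therefore do not measure those among the real calls.

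The members and the 51 gene lists were chosen with earlier results of these data known. Named genes are, per direction, the 8 genes of smallest p with 9 libraries and the 8 of largest fold with a mean of at least 100 over the 6 libraries, each with a symbol, groups that do not overlap and a call with 6 libraries, up to 4 members of smallest p per list, and APP, MAPT, APOE, GFAP, TREM2 and RBFOX3. PRNP, SNAP25, PVALB, BCAS1 and members named to complete a count of calls were named after their values were seen. Some genes that the rule takes are not reported here. Symbols are those of the files, of which 95.4% were found in the RefSeq annotation of UU_Cfam_GSD_1.0.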

Additional observations from a re-analysis of the deposited data

Results flagged for a closer look

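Some values lie outside the comparison of genes. Reads on transposable element families, which the comparison leaves out, made up 7.91%, 6.54% and 5.53% of reads in CCD cortex_163, cortex_354 and cortex_358, against 4.79%, 4.44% and 5.18% in old cortex_250, cortex_253 and cortex_264, so that every CCD library was above every old one. Young cortex_270, cortex_353 and cortex_377 had 5.24%, 5.64% and 4.19%.

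Of the 31 leading genes of the cortex, 5 also had EV groups that do not overlap, where 5.93% of all genes tested in EVs do. For 3 of them the direction was that of the cortex: the EV log2 fold change was 0.50 ± 0.19 (SE) for CD300LF, -0.35 ± 0.21 for PPARD and -0.42 ± 0.23 for LRRC59. For MOV10 and PDE1A it was the opposite one. MOV10, higher in CCD cortex, had 201 ± 20.4 normalised counts in CCD EVs and 299 ± 32.1 in old EVs (SD, n = 4 each), a log2 fold change of -0.57 ± 0.19. PDE1A, lower in CCD cortex, had 160.0 ± 10.7 in CCD EVs and 102 ± 17.5 in old EVs, a log2 fold change of 0.66 ± 0.32. In EVs the limma adjusted p was 0.777 for each of the 5, and the difference between the tissues was not tested. In old EVs 1 library stood apart from the other 3 for PPARD, at 195 normalised counts (group mean 138 ± 22.2 in CCD and 174 ± 13.5 in old). How often chance alone gives such a gap was not tested. In EVs 26 of the 31 had a negative log2 fold change, where the median of all genes tested was -0.27.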

How the results depend on the processing

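Calls depend on the libraries that set the spread and on the tool. Against 0 genes in either direction in the 3-group limma fit, 483 higher and 1295 lower genes were called with the 6 CCD and old libraries alone, 384 and 1248 with library weights, and 108 and 52 with DESeq2 in 3 groups. With 6 libraries edgeR called 649 and 754, DESeq2 1646 and 1546, limma after quantile normalisation 681 and 851, and limma centred on the median gene 468 and 1163. Pseudocounts of 5, no filter, a minimum mean of 50, quantile normalisation, median centring, scaling to gene reads, and edgeR in 3 groups gave 0 in both directions (edgeR had 1318 with CCD higher and 1154 with CCD lower by unadjusted p under 0.05). Leaving out 1 library gave 0 to 771 higher and 0 to 2118 lower genes over both limma fits (with 6 libraries 85 and 246 without CCD cortex_163, 90 and 306 without CCD cortex_354, 95 and 330 without old cortex_250, 104 and 258 without old cortex_253); with 9 libraries the count left 0 only without young cortex_377, at 185 higher and 556 lower. Lower genes made up 73.1% of calls at an unadjusted p under 0.05 with 9 libraries, 57.9% after quantile normalisation, 46.7% with edgeR and 44.9% with DESeq2; with 6 libraries and adjusted p, DESeq2 gave 48.4%. The cause of these differences was not tested.

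Over 29 alternatives 10 of 3419 recomputed log2 fold changes of 118 named genes turned round, all of SNAP25 and TREM2, neither of which was called. SNAP25 was -0.43 after quantile normalisation (-0.46 with 6 libraries) and -0.05 to 0.10 when 1 library was left out. TREM2 ranged over -0.58 to 0.82 when 1 library was left out: -0.58 without CCD cortex_354, -0.10 without CCD cortex_358 and -0.05 without old cortex_250. Of 1479 recomputed list medians 135 moved by more than the spread of the CCD libraries, and 40 of the 51 lists kept their sign throughout; the myelin median of -0.12 was 0.08 with edgeR on 6 libraries. Of the 1778 calls, 1357 were also made with library weights, and 42 higher and 147 lower genes were called in at least 5 of the 6 fits that leave out 1 of the 6 libraries. No paired analysis was possible because CCD and old cortex share no library number. Dependence on gene length was not run, as no gene lengths were used here. Depth limits low genes first, and CCD libraries are the shallower ones.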
